A study of Psychotria gabriellae and Psychotria semperflorens with 6 samples.

Results

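Nickel hyperaccumulators are plants that take up the metal from soils over metal-rich rock, such as serpentine, and concentrate it in their leaves. Nickel moves from root to shoot in the xylem, is bound by organic acids and amino acids, and is stored mainly in vacuoles of leaf cells, with transporters such as those of the IREG/ferroportin family known to carry it across membranes. Leaf transcripts that are abundant in a hyperaccumulator and scarce in a related non-accumulator are therefore of interest as a set. The set described here comprises 126 of 60899 contigs of a leaf transcriptome of Psychotria gabriellae, a shrub of the coffee family endemic to New Caledonia. A contig is an assembled transcript sequence, not a gene, and the contigs are given here by identifier, with no gene name, function or position.

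Contigs were chosen by their values in all 6 libraries, as CPM, each read count scaled to a common library size without further normalization. A member had a mean of at least 10 CPM over the 6 libraries, its lowest P. gabriellae value lay above its highest P. semperflorens value, and its P. gabriellae mean was at least 4 times the P. semperflorens mean. Of all contigs, 13853 met the first criterion, here called abundant contigs, 1641 of these (11.8%) also the second, and 126 all of them. A further 108 contigs met the first and the last criterion but overlapped between the species. The species difference of the members is thus fixed by the choice and is a description with no test.

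The study sequenced polyA RNA from leaves of wild plants growing in rain forest on serpentine soil, 3 plants of P. gabriellae, labelled as a nickel hyperaccumulator, and 3 of P. semperflorens, which the labels give as not accumulating the metal. A library stands for a single plant. Plants 1 and 3 of each species were collected at Monts Koghi on 30 October and 4 November, and plant 2 of each at Rivière Blanche on 10 March of the following year, so that each day gave 1 plant of each species. On 30 October these were P. gabriellae plant 1 and P. semperflorens plant 3, and on 4 November P. gabriellae plant 3 and P. semperflorens plant 1. Species and nickel phenotype cannot be told apart in these groups, nor can site and season. No treatment or age is labelled.

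Library totals ran from 29905486 reads in P. gabriellae plant 3 to 62064930 in plant 2 of that species, so that 10 CPM stood for 299 to 621 reads. Every member held at least 25 reads in every P. gabriellae library. P. gabriellae plant 1 stood apart in having only 2 contigs with no read, against 2062 to 3425 in the other libraries, and without it the criteria chose 161 contigs, 104 of them members. Reads of both species were counted on the P. gabriellae assembly, made from 1 plant of the species. The part that sequence differences between species, or between the assembled plant and the others, have in the values was not tested. In whole leaves, fewer cells of a type and less RNA per cell cannot be told apart.

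Together the members took 1.02%, 1.17% and 1.30% of the reads in P. gabriellae plants 1, 2 and 3, and 0.191%, 0.144% and 0.165% in P. semperflorens plants 1, 2 and 3. Within P. gabriellae the share was thus even, although single members were not. The median member was at 33.5, 34.1 and 45.2 CPM in the P. gabriellae plants and at 4.51, 5.48 and 5.61 CPM in the P. semperflorens plants. The ratio of the species means had a median of 6.83 over the members and a range of 4.07 to 2065. It lay between 4 and 8 in 78 members, between 8 and 16 in 30, between 16 and 64 in 10, and above 64 in 8. Most members were therefore moderately scarcer in P. semperflorens rather than missing there: 114 of 126 held at least 10 reads in every library. In 5 members (3.97%) a P. semperflorens library was at 0 reads, against 0.101% of abundant contigs. This excess follows at least in part from the criteria, which choose low P. semperflorens values.

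**Figure D1:**
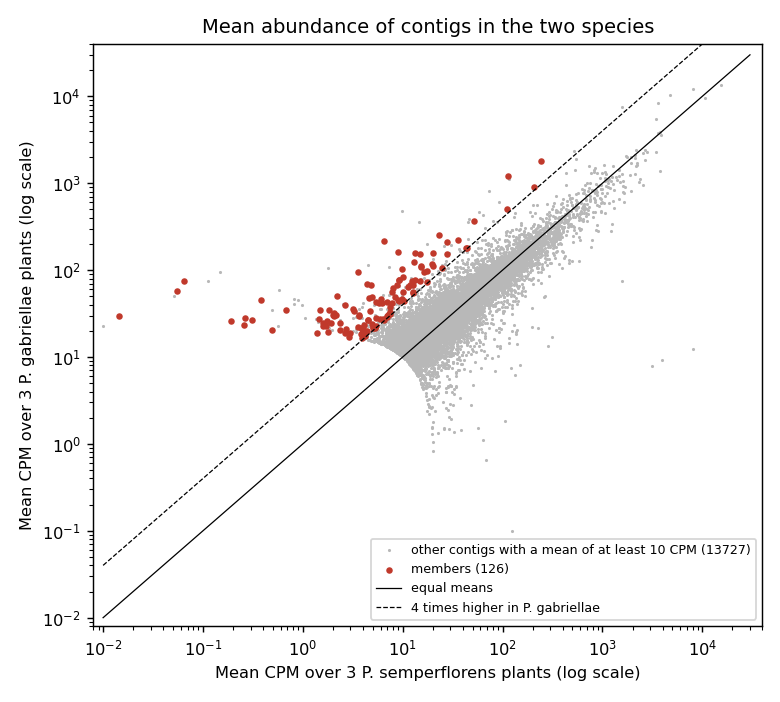
Mean CPM over the 3 P. semperflorens plants (x axis) against mean CPM over the 3 P. gabriellae plants (y axis), both on log scales, for the 126 members (red) and the other abundant contigs (grey); the lines mark equal means and a 4-fold difference. Members span P. gabriellae means of 16.5 to 1787 CPM, and 3 lie far to the left with at most 10 P. semperflorens reads in all.

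Of the 126 members, 3 had P. gabriellae means above 500 CPM, 20 lay between 100 and 500 CPM and 64 between 20 and 50 CPM. The most abundant was Pgab_v2_contig_128, at 1268, 2380 and 1714 CPM in P. gabriellae plants 1, 2 and 3 and at 308, 203 and 209 CPM in P. semperflorens plants 1, 2 and 3. It ranked 51st, 17th and 27th among all contigs in the P. gabriellae leaves and 395th, 703rd and 584th in the P. semperflorens leaves. By CPM, which takes no account of contig length, a leading contig of the hyperaccumulator leaf thus still held many reads in the other species. Its ratio of means was 7.45.

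Pgab_v2_contig_585 was at 980, 746 and 1924 CPM in the P. gabriellae plants and at 216, 63.2 and 57.1 CPM in the P. semperflorens plants. Its ratio of 10.9 rose to 20.2 without P. semperflorens plant 1, the highest plant of that species. Pgab_v2_contig_907 was at 532, 1299 and 873 CPM against 288, 142 and 187 CPM. Its ratio of 4.39 fell under the 4-fold criterion, at 3.42 without P. gabriellae plant 2 and at 3.795 without P. semperflorens plant 2, the plants of Rivière Blanche.

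Pgab_v2_contig_324 was the steadiest of the 8 most abundant members in P. gabriellae, at 430, 550 and 517 CPM against 106, 81.1 and 143 CPM, and its ratio stayed between 4.01 and 5.34 with any 1 library left out. Pgab_v2_contig_4003 was at 467, 110 and 529 CPM against 48.9, 46.9 and 59.4 CPM. Here the P. semperflorens plants were close together, and the Rivière Blanche plant of P. gabriellae was low. Pgab_v2_contig_692 had the reverse order in P. gabriellae, at 93.8, 459 and 119 CPM against 22.2, 33.9 and 52.1 CPM, and without the Rivière Blanche plant its ratio fell from 6.20 to 2.95.

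Pgab_v2_contig_2759 was at 244, 64.3 and 447 CPM in P. gabriellae and at 49.4, 5.41 and 14.1 CPM in P. semperflorens. Its ratio of 11.0 was 6.71 without P. gabriellae plant 3 and 25.8 without P. semperflorens plant 1. The contig numbered next to it, Pgab_v2_contig_2760, was also a member and had the same order of plants in both species, at 184, 27.4 and 253 CPM against 25.9, 8.04 and 11.2 CPM. This was the only pair of members with consecutive numbers, and it was singled out after its values were seen. Next to members in the numbering, such contigs were about as frequent as elsewhere: of 252 contigs numbered next to a member, 10 (3.97%) were non-overlapping and at least 4 times higher in P. gabriellae whatever their abundance, against 3.3% of all contigs. Whether neighbouring contigs are pieces of 1 transcript was not tested.

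**Figure D2:**
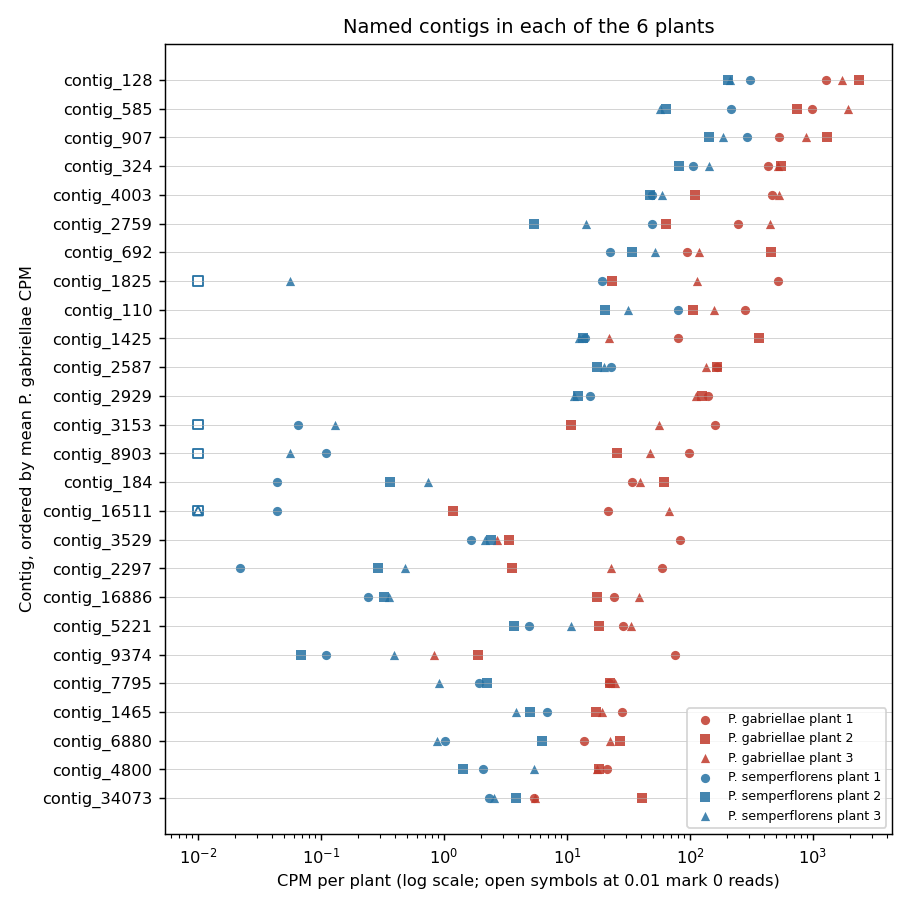
CPM of the 26 contigs named by a fixed rule in each plant (x axis, log scale), with contigs ordered by mean P. gabriellae CPM (y axis); red marks P. gabriellae, blue P. semperflorens, and symbols the plant number. Pgab_v2_contig_3529 and Pgab_v2_contig_9374 show 1 P. gabriellae plant far above the other 2, whereas the P. gabriellae plants of Pgab_v2_contig_7795 lie almost on 1 point.

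The members that were nearly undetected in P. semperflorens form a small group. Pgab_v2_contig_3153 was at 160, 10.8 and 55.7 CPM in P. gabriellae plants 1, 2 and 3 and held 3, 0 and 7 reads in the P. semperflorens plants. Pgab_v2_contig_16511 was at 21.6, 1.18 and 67.2 CPM and held 2, 0 and 0 reads. Pgab_v2_contig_8903 was at 98.7, 25.4 and 47.3 CPM and held 5, 0 and 3 reads. In all 3 of these contigs the Rivière Blanche plant was the lowest P. gabriellae plant and held no read in P. semperflorens.

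Pooled over plants and each divided by the reads of its species, the ratio was 1210 for Pgab_v2_contig_3153 (exact 95% interval 656 to 2520), 1140 for Pgab_v2_contig_8903 (576 to 2630) and 1750 for Pgab_v2_contig_16511 (485 to 14500). These intervals cover counting error only, and the plants of P. gabriellae differed among themselves by more than the counting error, 57.1-fold in Pgab_v2_contig_16511. With 1 library left out the ratio of mean CPM moved as well, mostly within these intervals. In Pgab_v2_contig_3153 it was 510 without P. gabriellae plant 1, below the interval, and 2317 without P. semperflorens plant 3, inside it. In Pgab_v2_contig_8903 it was 662 without P. gabriellae plant 1 and 2044 without P. semperflorens plant 1, both inside. In Pgab_v2_contig_16511 it was 783 without P. gabriellae plant 3, also inside, and without P. semperflorens plant 1 that species held no read.

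High ratios were also found in contigs with 30 to 63 P. semperflorens reads. Pgab_v2_contig_184 was at 34.0, 61.8 and 39.5 CPM in P. gabriellae and at 0.0435, 0.361 and 0.745 CPM in P. semperflorens, a ratio of 118 that lay between 81.5 and 223 with 1 library left out, the last without P. semperflorens plant 3. Pgab_v2_contig_16886 was at 23.9, 17.7 and 38.8 CPM against 0.239, 0.326 and 0.354 CPM, with 11, 19 and 19 reads. Both were low in every P. semperflorens plant and differed 1.82-fold and 2.19-fold between the highest and lowest P. gabriellae plants, and their lowest P. gabriellae value exceeded the highest P. semperflorens value 45.6-fold and 49.9-fold.

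Pgab_v2_contig_2297 was at 59.1, 3.59 and 22.7 CPM against 0.0218, 0.292 and 0.485 CPM, so that its ratio of 107 hid a wide spread in P. gabriellae, and it was 49.4 without plant 1 of that species and 181 without P. semperflorens plant 3. Pgab_v2_contig_9374 was at 75.3, 1.90 and 0.836 CPM against 0.109, 0.0687 and 0.391 CPM. Its ratio of 137 fell to 7.22 without P. gabriellae plant 1 and was 293 without P. semperflorens plant 3.

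At the other end, 3 members with the lowest ratios were just above the 4-fold criterion. Pgab_v2_contig_1465 was at 27.8, 17.3 and 19.1 CPM against 6.90, 5.02 and 3.84 CPM, a ratio of 4.07. Pgab_v2_contig_5221 was at 28.4, 18.3 and 33.4 CPM against 4.92, 3.69 and 10.8 CPM, a ratio of 4.14. Pgab_v2_contig_110 was far more abundant, at 281, 105 and 157 CPM against 79.4, 20.5 and 31.0 CPM, a ratio of 4.15. This last ratio was 7.03 without P. semperflorens plant 1 and 3.01 without P. gabriellae plant 1, and each of the 3 contigs fell under 4 without some library. Just outside stood Pgab_v2_contig_3403, with a ratio of 3.998, and Pgab_v2_contig_8419, with 3.96.

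The other criteria were met as narrowly by some. Pgab_v2_contig_34073 and Pgab_v2_contig_13603 had means over the 6 libraries of 10.02 and 10.2 CPM, while Pgab_v2_contig_6881 and Pgab_v2_contig_15200, at 9.97 and 9.92 CPM, were left out. The lowest P. gabriellae value was 1.0006 times the highest P. semperflorens value in Pgab_v2_contig_27167 and 1.01 times in Pgab_v2_contig_17971. It was 0.997 times in Pgab_v2_contig_9667 and 0.975 times in Pgab_v2_contig_4901, which were left out. In 47 of the 126 members this gap was under 2-fold, in 47 it was 2-fold to 4-fold, in 18 it was 4-fold to 8-fold and in 14 it was wider.

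The members varied between plants of 1 species more than abundant contigs in general. The coefficient of variation over the P. gabriellae plants had a median of 0.497 among members and of 0.279 among all 13853 abundant contigs. Over the P. semperflorens plants the medians were 0.442 and 0.225. Since the criteria act on these same values, the difference is a description. In 69 of 126 members the coefficient was larger in P. gabriellae than in P. semperflorens.

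In 16 members (12.7%) the P. gabriellae coefficient was at most 0.25, against 43.9% of abundant contigs, a share that follows in part from the criteria. Pgab_v2_contig_7795 was the steadiest, at 22.1, 22.3 and 24.6 CPM in P. gabriellae and at 1.94, 2.23 and 0.913 CPM in P. semperflorens. Pgab_v2_contig_2587 was at 167, 165 and 136 CPM against 22.9, 17.6 and 20.1 CPM. Pgab_v2_contig_2929 was at 139, 124 and 111 CPM against 15.3, 12.2 and 11.4 CPM. In the last 2 contigs all plants of a species lay close together across sites and days, and the ratios of 7.72 and 9.61 moved only to between 7.26 and 8.27 and between 9.06 and 10.5 with 1 library left out.

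Pgab_v2_contig_4800 was also even in P. gabriellae, at 21.3, 18.1 and 17.7 CPM, but not in P. semperflorens, at 2.07, 1.43 and 5.37 CPM, and its ratio of 6.43 was 10.9 without P. semperflorens plant 3. The criteria also act on the values behind the next shares, which are a description. In 6 members (4.76%) a single P. semperflorens plant held at least 80% of the summed CPM of its species, against 1.25% of abundant contigs. Among them, picked after their values were seen, Pgab_v2_contig_1325 was at 25.3, 0.189 and 0.708 CPM in the P. semperflorens plants, against 58.7, 56.5 and 86.4 CPM in P. gabriellae. Pgab_v2_contig_19793 had 273 reads in P. semperflorens plant 1 and 0 in plants 2 and 3, against 31.2, 24.9 and 36.0 CPM in P. gabriellae. These contigs were even in the hyperaccumulator and close to absent from 2 of the 3 non-accumulator plants, with plant 1 the exception in both.

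In 30 members (23.8%) 1 P. gabriellae plant held at least 60% of the summed CPM of its species, against 9.16% of abundant contigs. The plant was plant 1 in 8 members, plant 2 in 14 and plant 3 in 8. Since the criteria act on these same values, the difference in shares is a description. Pgab_v2_contig_3529 was at 82.7, 3.38 and 2.71 CPM against 1.65, 2.41 and 2.14 CPM. Apart from plant 1 the species barely differed in this contig: its ratio of 14.3 fell to 1.47 without that plant.

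Pgab_v2_contig_1825 was at 517, 23.3 and 114 CPM in P. gabriellae and at 19.4, 0 and 0.0559 CPM in P. semperflorens. Its ratio of 33.7 became 10.6 without P. gabriellae plant 1 and 7791 without P. semperflorens plant 1, since the other 2 plants of that species held 3 reads in all. Pgab_v2_contig_1425 was at 80.3, 366 and 21.9 CPM against 14.0, 13.6 and 12.4 CPM, and Pgab_v2_contig_34073 at 5.38, 40.5 and 5.52 CPM against 2.33, 3.83 and 2.53 CPM. In both of these the Rivière Blanche plant was the highest of P. gabriellae, and without it the ratios of 11.7 and 5.91 were 3.83 and 1.88.

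**Figure D3:**
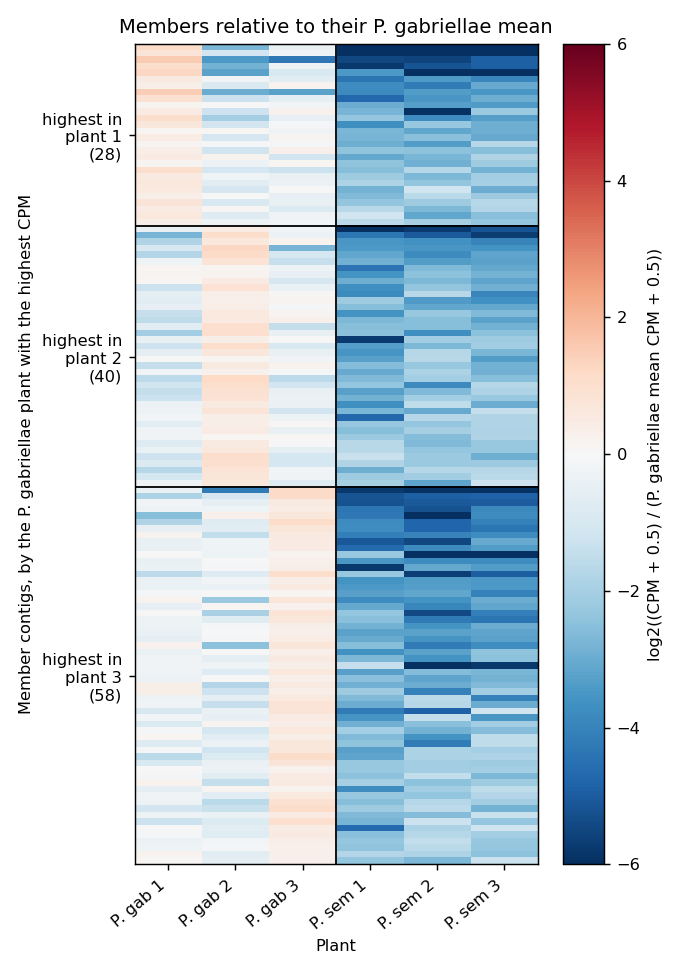
Each row is 1 of the 126 members and each column a plant; colour gives log2 of CPM relative to the P. gabriellae mean of that contig, with 0.5 added to both, and rows are grouped by the P. gabriellae plant with the highest value. Plant 3 was highest in 58 members, plant 2 in 40 and plant 1 in 28, while the P. semperflorens columns are lower throughout, as the criteria require.

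P. gabriellae plant 3 was the highest of its species in 58 members (46%), against 36.5% of abundant contigs. Plant 2 was highest in 40 members (31.7%), against 37.4%, and plant 1 in 28 (22.2%), against 26.1%. P. gabriellae plant 3 was also the smallest library and had the largest TMM scaling factor, 1.18 against 0.966 and 0.983 for plants 1 and 2. On TMM-scaled CPM 108 of the 126 members still met the criteria, and no other contig did.

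Of the 126 members, 73 failed the ratio or the abundance criterion when some library was left out. How many failed each of these was not counted. Pgab_v2_contig_7795, the steadiest member in P. gabriellae, was among the 73, although its ratio stayed between 11.0 and 16.1. With 1 library left out the criteria chose 117 to 217 contigs. Of the 126 members, 104, 99 and 91 remained without P. gabriellae plants 1, 2 and 3, and 110, 116 and 117 without P. semperflorens plants 1, 2 and 3. The abundance criterion was applied to the mean over the libraries kept. For members that mean tends to fall without a P. gabriellae plant and to rise without a P. semperflorens plant. The counts that remained follow in part from this. In all, 53 members met the criteria with each library left out in turn. Among these were 6 of the 8 most abundant members, all but Pgab_v2_contig_907 and Pgab_v2_contig_692, and 3 of the 6 with the highest ratio. The median P. gabriellae mean was 67.2 CPM in the 53 and 26.8 CPM in the other 73, which follows in part from the abundance criterion.

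A measurement that the choice had not used was had by leaving out both plants of 1 collection day. The same criteria were applied to the 4 other plants, and the ratio of the P. gabriellae plant to the P. semperflorens plant was then read on the day left out, with 0 reads in P. semperflorens replaced by 3. Contigs chosen in this way were higher in P. gabriellae on the day left out more often than abundant contigs at large, and at least 4 times higher far more often. With 1 plant against 1, no test was made.

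For 30 October, 254 contigs were chosen, of which 186 (73.2%) were higher in P. gabriellae plant 1 than in P. semperflorens plant 3, against 44.7% of 13660 contigs that averaged at least 10 CPM in the choosing libraries. At least 4 times higher were 86 of the 254 (33.9%), against 2.51%. For 4 November, 138 of 159 chosen contigs (86.8%) were higher, against 56.5%, and 80 (50.3%) were at least 4 times higher, against 3.81%. For 10 March at Rivière Blanche, 166 of 256 (64.8%) were higher, against 56.5%, and 69 (27%) were at least 4 times higher, against 2.25%.

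At least 2 times higher were 137, 114 and 110 of the chosen contigs (53.9%, 71.7% and 43%), against 8.48%, 14.6% and 9.21%.

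The size of the difference shrank on the day left out. The median ratio was 6.07, 6.59 and 6.92 in the choosing plants, and 2.20, 4.07 and 1.55 on 30 October, 4 November and 10 March. Some chosen contigs pointed strongly the other way: 7.48%, 5.03% and 9.38% were at most 0.25 times as high in P. gabriellae on those days, against 2.74%, 2.9% and 3.83% of abundant contigs. The value at Rivière Blanche was the lowest, and here the choosing plants all came from Monts Koghi, whereas for the other days they came from both sites. All 3 readings use the same P. gabriellae reference, so a sequence difference shared by the plants of a species would recur on each day.

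**Figure D4:**
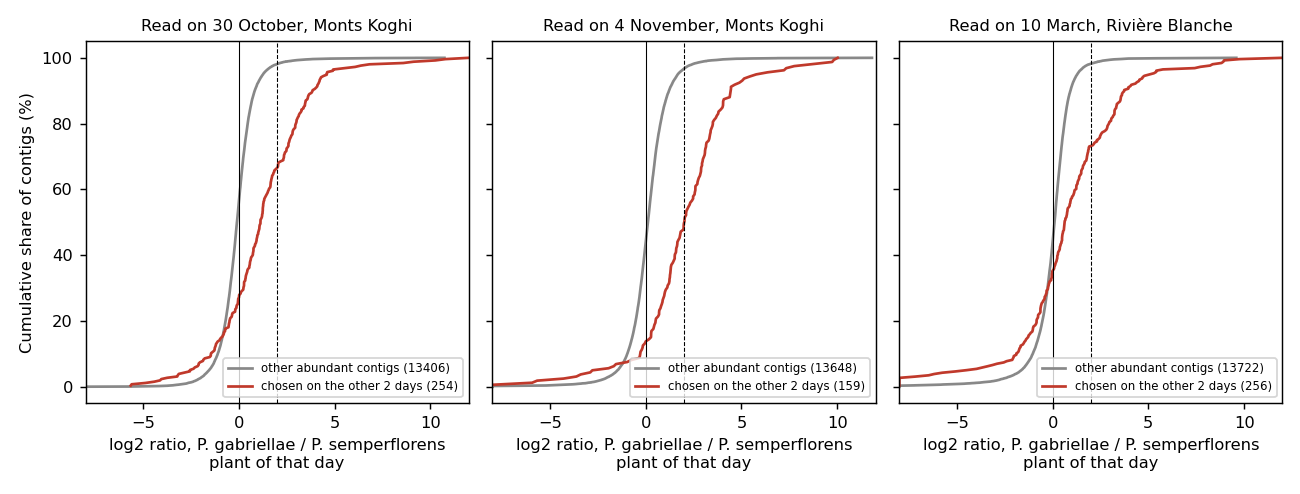
Cumulative share of contigs (y axis, %) by log2 ratio of P. gabriellae over P. semperflorens on the collection day left out (x axis; solid line at equality, dashed line at 4-fold; values beyond the axis are drawn at its ends). Contigs chosen on the other 2 days (red) lie to the right of other abundant contigs (grey) above equality on each day, with medians of 2.20, 4.07 and 1.55, and also have more contigs in the lower tail.

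The site contrast, Rivière Blanche in March against Monts Koghi in October and November, was not used by the criteria and is balanced over the species. No member was called in edgeR's quasi-likelihood test with species and site in the model, where 0% of 53478 tested contigs were called, and the lowest adjusted p among members was 0.507. At an unadjusted p under 0.05 stood 20 members (15.9%), 10 higher and 10 lower at Rivière Blanche, against 9.14% of all contigs tested. DESeq2 called 9 members (7.14%), 4 higher and 5 lower, against 2.24% of all contigs tested, and limma-voom called 0. The contigs tested include many under 10 CPM, unlike the members, so these shares are not like for like. Shares among abundant contigs were not computed for the tests. The log2 difference over members had a median of 0.02, beside -0.05 over all contigs tested. With 2 plants against 4, a p over the threshold does not show that members were alike at both sites.

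Within each species the Rivière Blanche plant was compared with both Monts Koghi plants. It was the lowest of the P. gabriellae plants in 49 members (38.9%), against 33.6% of abundant contigs. In P. semperflorens it was the highest plant in 42 members (33.3%), against 31.3%, and the lowest in 50 (39.7%), against 38.8%. It was highest in both species in 18 members (14.3%), against 15.4%, and lowest in both in 21 (16.7%), against 15.9%. In 25 members (19.8%) it was highest in 1 species and lowest in the other, against 18.8%. The shares for both species together were thus close to those of abundant contigs.

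Single members differed widely by site. Pgab_v2_contig_16511 had a log2 site difference of -5.00 (standard error 1.06, edgeR adjusted p = 0.507), and its P. gabriellae value at Rivière Blanche was 0.0265 times the Monts Koghi mean. Pgab_v2_contig_1825 and Pgab_v2_contig_3153 had log2 site differences of -5.10 (standard error 2.48) and -3.41 (standard error 0.81), with edgeR adjusted p = 0.589 and 0.507. In these 3 contigs P. semperflorens had 0 reads at Rivière Blanche. Without P. semperflorens plant 1 the log2 site difference of Pgab_v2_contig_1825 was -3.74. Those of Pgab_v2_contig_16511 and Pgab_v2_contig_3153 were then -4.96 and -3.41, close to their values with all plants. How far the fitted values depend on the prior count was not tested. DESeq2 called Pgab_v2_contig_16511 and Pgab_v2_contig_3153 (adjusted p = 0.000334 and 0.00989) and not Pgab_v2_contig_1825 (0.299).

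Of the 126 members, 64 had a log2 site difference above 0 and 18 were at least 2-fold higher at Rivière Blanche. The 3 highest were Pgab_v2_contig_34073, with a log2 site difference of 2.05 (standard error 0.53), Pgab_v2_contig_6880, with 1.90 (0.53), and Pgab_v2_contig_1425, with 1.75 (0.82), none of them called by edgeR (adjusted p = 0.507, 0.507 and 0.580). DESeq2 called the first (adjusted p = 0.0317) and not the others (0.0601 and 0.320). The difference lay in P. gabriellae for the first and the last, at 7.44 and 7.18 times the Monts Koghi mean against 1.57 and 1.03 times in P. semperflorens. Pgab_v2_contig_6880 was instead 6.57 times higher at Rivière Blanche in P. semperflorens, at 6.24 CPM against 1.02 and 0.876 CPM, and 1.504 times in P. gabriellae, at 27.2 CPM against 13.7 and 22.4 CPM. Its species ratio of 7.78 was 22.2 without P. semperflorens plant 2. Its numbered neighbour Pgab_v2_contig_6881, just under the abundance criterion, showed the same P. semperflorens pattern, at 7.56 CPM at Rivière Blanche against 0.131 and 0.354 CPM.

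**Figure D5:**
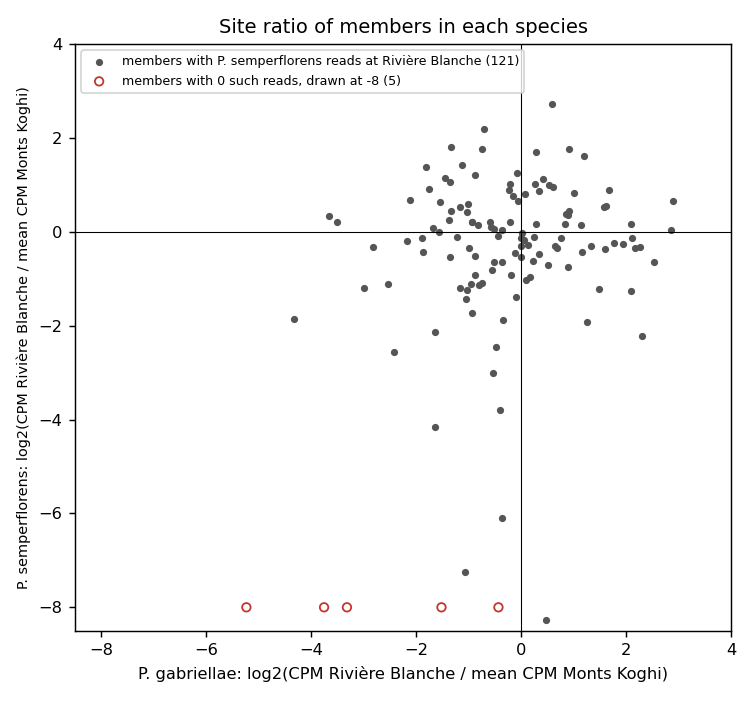
For each member, log2 of the Rivière Blanche CPM over the mean Monts Koghi CPM in P. gabriellae (x axis) and in P. semperflorens (y axis); lines mark equal values. Members with 0 P. semperflorens reads at Rivière Blanche are drawn as open circles at the bottom, and all 5 of them lie left of the line of equality in P. gabriellae.

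Whether the site difference of a member differed between the species was tested as an interaction of species and site. EdgeR's quasi-likelihood test called 0 members, as it called 0% of all contigs, with a lowest adjusted p of 0.352 among members and 25 members (19.8%) at an unadjusted p under 0.05, against 7.08% of contigs tested. DESeq2 called 6 members (4.76%), against 1.6% of contigs tested, and limma-voom called 0. The model leaves 2 residual degrees of freedom.

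In the species comparison itself, which the criteria used, edgeR's quasi-likelihood test called 16 of the 126 members at an adjusted p under 0.05, against 0.135% of all contigs called higher in P. gabriellae. DESeq2 called 103, against 2.26%. Nothing can be read from these counts, since the members were chosen by the same contrast. With collection day as a block the test called 0 members (lowest edgeR adjusted p = 0.173), and it also called 0 without any 1 of the 6 libraries. The lowest edgeR adjusted p then ran from 0.0501 without P. gabriellae plant 1, just over the threshold, to 0.171 without P. semperflorens plant 3.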

How the data were processed

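Leaf polyA RNA of 6 wild plants was sequenced, and libraries were made with a strand-keeping kit, per the labels' protocols. The files deposited by the authors hold raw read counts per contig, per the file headers, for 60899 contigs of the P. gabriellae assembly. Which aligner, counter, strand setting and filter they used is not stated in the labels or headers. Members were chosen by CPM on unscaled totals. The members and lists were chosen with earlier results of these data known. Gene lists and contig sequences were not analysed here.

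Tests across all contigs used R 4.3.3 and edgeR 4.0.16, with filterByExpr (53478 contigs kept, all 126 members among them), TMM scaling, the quasi-likelihood test and Benjamini-Hochberg adjustment over all contigs tested. A standard error is the log2 difference divided by the square root of F. DESeq2 1.42.0 and limma 3.58.1 served as alternatives, and the species and site tests were run on simulated counts. Collection day pairs the plants per the labels. After removing species means, log2(CPM + 0.5) of same-day plants correlated across contigs at 0.177, -0.0645 and 0.197 for 30 October, 4 November and 10 March. Named contigs are the 8 most abundant members, the 6 highest and 3 lowest ratios, the 5 widest gaps, the 5 lowest and 5 highest coefficients of variation, the 3 highest and 3 lowest site differences, and any with at most 3 P. semperflorens reads.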

Additional observations from a re-analysis of the deposited data

Results flagged for a closer look

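In 25 of the 126 members the Rivière Blanche plant was highest in 1 species and lowest in the other, so that the site difference pointed in opposite directions. This is 19.8% of members, near the 18.8% of abundant contigs, so by direction alone the members did not stand apart. The count takes no account of the size of a difference. The difference was not tested in this count. In the interaction test edgeR called none of the members (25 at an unadjusted p under 0.05, or 19.8% against 7.08% of contigs tested), DESeq2 called 6 (4.76% against 1.6%) and limma-voom 0. The contigs tested include many less abundant than any member, so these shares are not like for like.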

How the results depend on the processing

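All alternatives were planned. The number of members was 245 at a mean of 5 CPM, 65 at 20 CPM, 442 at a ratio of 2, 48 at a ratio of 8, 80 with a gap of 2-fold, 108 on TMM-scaled CPM, 104 with DESeq2 size factors, 120 with medians and 117 to 217 with 1 library left out. Of the members, the species test called 103 with DESeq2, 0 with the replicate block (lowest edgeR adjusted p = 0.199), 0 with collection day as a block, 0 with site as covariate and 0 to 0 with 1 library left out. By the collection days in the labels, the replicate numbers pair only the plants numbered 2. Same-numbered plants 1, 2 and 3 correlated at -0.00242, 0.197 and 0.0874. Same-day plants correlated at 0.177, -0.0645 and 0.197, so the correlations do not tell the pairings apart. Scaling by RLE, other count filters and limma-voom called 11 to 19. For the sites DESeq2 called 9 members and for the interaction 6; every other alternative run called 0. On the day left out, chosen contigs at least 2 times higher numbered 137, 114 and 110 for 30 October, 4 November and 10 March; at a mean of 20 CPM, 45, 44 and 45 were at least 4 times higher. The lower or higher counts under looser and stricter criteria follow from the criteria; for the tests the cause was not tested. Of 276 values of the 26 named contigs, species ratios and site differences, none reversed. With 1 library left out a species ratio could not reverse, since the criteria forbid overlap. Of the species ratios, 11 moved by more than the spread between plants. Site differences were compared only by sign and by being called. That of Pgab_v2_contig_1425 was 1.75 and became 0.192 without P. gabriellae plant 2. DESeq2 called 3 site differences, those of Pgab_v2_contig_34073, Pgab_v2_contig_16511 and Pgab_v2_contig_3153. Depth limits the contigs with few P. semperflorens reads.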
